A study of Homo sapiens with 4 samples.

Results

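Sialyl-, fucosyl-, galactosyl- and N-acetylhexosaminyltransferases were examined in GFP-positive and GFP-negative cells of MDA-MB453, an established human breast cancer line. Members were all probes whose platform gene symbol began with ST3GAL, ST6GAL, ST8SIA, B3GNT, B3GALT, B4GALT, B4GALNT or GCNT, or with FUT, GALNT or MGAT followed by a digit. The rule found 127 of the 47321 probes on the array. They carried 87 symbols, of which 84 name enzymes and 3 name antisense RNAs (B3GALT5-AS1, FUT8-AS1 and GALNT9-AS1). The GFP-positive cells are called stem-like cancer cells in the labels and had 2 arrays, ST1 and ST2. The GFP-negative cells are labelled as lacking that property and also had 2 arrays, NS1 and NS2. Both groups were cultured in serum-supplemented DMEM, with no other treatment named, and total RNA was hybridised to Illumina bead arrays. RNA of each GFP-positive and GFP-negative pair was isolated on its own day, and the series text mentions that batches of RNA were combined. The promoter and origin of the GFP marker are not given in the sources used here, and both groups come from 1 cell line.

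These enzymes work in the Golgi and build the glycans of glycoproteins and glycolipids one sugar at a time. Polypeptide N-acetylgalactosaminyltransferases (the GALNT family) start mucin-type O-glycans on serine and threonine, and GCNT and MGAT enzymes add N-acetylglucosamine branches to O-glycans and N-glycans. B3GNT and B4GALT enzymes extend the branches with lactosamine units, and sialyl- and fucosyltransferases cap or decorate them. Capping patterns on breast cancer cells are known to affect lectin binding and adhesion. Glycans and enzyme activities were not measured here.

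Between 36.8% and 38.5% of probes per array were detected (a detection p under 0.05 against the negative controls). Values are background-corrected, quantile-normalized log2 signals, and the lowest detected level lay between 6.09 and 6.17 on that scale. Differences are GFP-positive minus GFP-negative on the log2 scale with their standard errors, and a probe is called when limma's Benjamini-Hochberg adjusted p over 18098 tested probes falls under 0.05. Where neither array of a group detected a probe, its level there is only bounded, and the fold is written as "at least". An adjusted p beside such a fold belongs to the fitted difference, and the bound itself was not tested. Epithelial markers were present in both groups at different levels. EPCAM had 14.14 and 13.98 on the GFP-positive arrays, against 13.31 and 13.61 on the GFP-negative arrays. The simple-epithelial keratins KRT8 and KRT19 and the adhesion protein CDH1 were 36.3-, 9.18- and 8.16-fold higher in GFP-positive cells, and ERBB2 (-1.46 ± 0.17) and FOXA1 (-0.94 ± 0.22) were lower, while GATA3 and ESR1 were detected on no array. Of 9 tested luminal markers, 4 were higher and 2 lower in GFP-positive cells, where 45.8% of all tested genes had a called probe. The summed normalized signals of that list were between 65663 and 66891 on the GFP-positive arrays and between 30329 and 37115 on the GFP-negative arrays. Of 6 fibroblast markers, 3 were tested and all 3 (COL1A1, COL1A2 and COL3A1) were lower in GFP-positive cells, with list sums of 529 to 591, against 1237 to 1655 in GFP-negative cells. The log2 difference was -1.04 ± 0.31 for COL1A1 and -2.92 ± 0.36 for COL3A1, and COL1A2 was lower by a factor of at least 3.95 in 1 of its probes. The other 3 fibroblast markers (DCN, LUM and PDGFRB) and the 4 endothelial markers were detected on no array, as were 3 of 4 immune markers (PTPRC, CD3E and LYZ), and the part of these markers in the results was not tested. The sampled RNA comes from many cells, so fewer cells with a transcript and less transcript per cell cannot be told apart.

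In GFP-positive cells, transcripts for several sialyltransferases and O-glycan enzymes were higher, among them ST6GAL1 (log2 difference 3.40 ± 0.25) and the initiating enzymes GALNT18 (3.42 ± 0.20) and GALNT12 (at least 10.0-fold). In the other direction, ST3GAL3, B4GALT1, ST6GALNAC2 and B3GALT6 were lower in GFP-positive cells, with log2 differences between -1.64 and -1.10. Of the 127 member probes, 48 passed the detection filter, from 41 genes. Among those 48, 20 probes were higher, 8 were lower and 20 did not pass, so 58.3% were called, where 40.5% of all tested probes were. The share of higher calls was 41.7% among tested members and 18.8% among all tested probes, and the share of lower calls was 16.7% and 21.7%. By gene, 25 of 41 were called (61.0%, where 45.8% of all 10955 tested genes had a called probe), 18 higher and 7 lower. A probe can enter the test through detection in the group where it is bright. Of the 20 higher probes, 7 were detected on neither GFP-negative array and 4 on 1 of them, and of the 8 lower probes 2 were detected on neither GFP-positive array and 1 on 1 of them. Among the 32 member probes detected on all 4 arrays, 14 were called (43.8%, where 34.6% of all such probes were). Of these, 9 were higher and 5 lower, where 14.9% and 19.7% of all such probes were. The median log2 difference was 0.26 over tested member probes and -0.05 over all tested probes. Of the 48 tested members, 38 (79.2%) had no overlap between the groups, where 72.6% of all tested probes had none. The 28 called member probes were among these 38, which is no support apart from their calls. Without GFP-positive replicate 2, 4 member probes were called lower. Without background correction, 24 of the 28 called probes had a difference over 1.5 times smaller, with no change of sign.

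**Figure D1:**
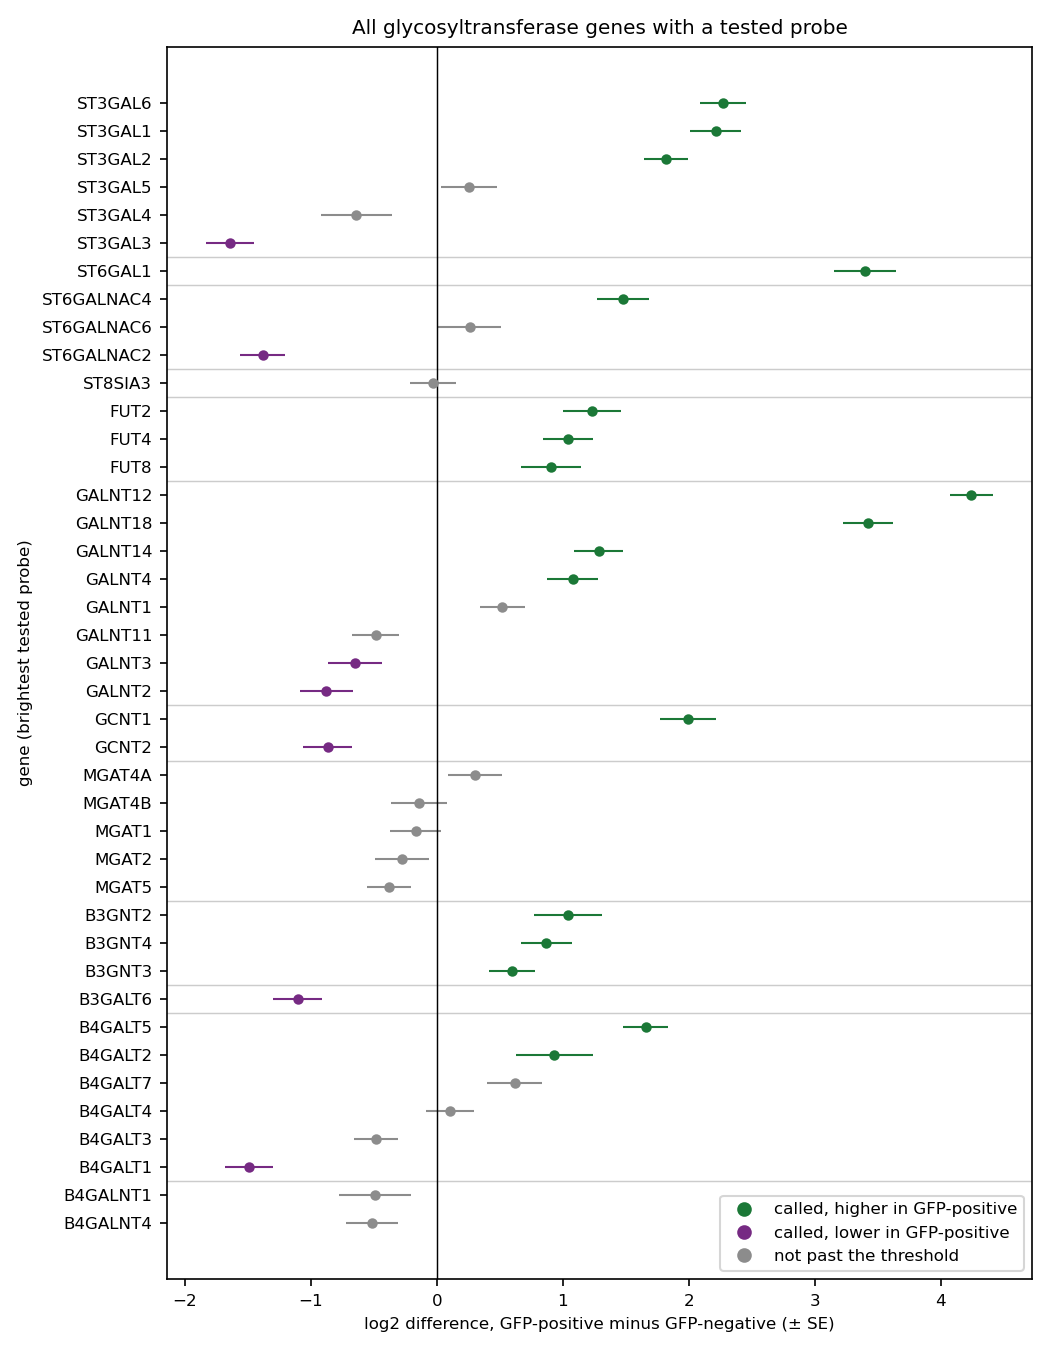
Log2 difference between GFP-positive and GFP-negative cells (horizontal axis, points with SE bars, 2 arrays per group) for the brightest tested probe of each of the 41 glycosyltransferase genes with a tested probe, ordered by enzyme family. GALNT12, GALNT18 and ST6GAL1 lie to the right, ST3GAL3 and B4GALT1 lie to the left, and no MGAT gene was called. The points of GALNT12, ST3GAL1, ST3GAL6, FUT2, GALNT4, GALNT14, B3GNT3 and GALNT3 are fitted against a level detected on neither array of the dimmer group. Only bounds are measured for these genes, 10.0-fold for GALNT12.

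Sialyltransferases that act on galactose through the ST3GAL family were split. ST3GAL1, which caps core O-glycans with sialic acid, had 8.22 and 8.0 on the GFP-positive arrays, against 5.71 and 6.08 on the GFP-negative arrays, where it was not detected. It was at least 3.97-fold higher in GFP-positive cells (adjusted p = 0.000132), and its other tested probe was higher too (1.79 ± 0.32). ST3GAL6, which caps lactosamine chains, had 7.85 and 7.91 in GFP-positive cells and 5.48 and 5.73 in GFP-negative cells. That gene was at least 3.39-fold higher (adjusted p = 6.3e-05), with both GFP-negative values below the lowest detected level. ST3GAL2, an enzyme of O-glycans and gangliosides, gave 7.95 and 7.90 in GFP-positive cells, against 6.02 and 6.19 in GFP-negative cells, where 1 of 2 arrays detected it. Its log2 difference was 1.82 ± 0.17 (adjusted p = 0.000168).

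ST3GAL3, which sialylates galactose on N-glycans and glycolipids, went the other way. Its brighter probe had 6.41 and 6.08 in GFP-positive cells, with 1 array detecting it, and 7.88 and 7.89 in GFP-negative cells. The log2 difference was -1.64 ± 0.19 (adjusted p = 0.000434). The dimmer ST3GAL3 probe was also lower in GFP-positive cells, by a factor of at least 1.49 (adjusted p = 0.00929), and its adjusted p was 0.0802 without GFP-positive replicate 2. The GM3 ganglioside synthase ST3GAL5 had 7.86 and 7.41 in GFP-positive cells, against 7.21 and 7.55 in GFP-negative cells, and did not pass (0.26 ± 0.22, adjusted p = 0.394). ST3GAL4, another lactosamine-capping enzyme, had 7.08 and 6.34 in GFP-positive cells, against 7.57 and 7.13 in GFP-negative cells, and did not pass either (-0.64 ± 0.28, adjusted p = 0.111). The adjusted p of ST3GAL4 was 0.0193 with the isolation day as a block and 0.0345 when GFP-positive replicate 1 was left out. Of the 6 ST3GAL genes, 3 were thus higher in GFP-positive cells, 1 was lower and 2 did not pass. By probe, 4 of 8 tested were higher and 2 lower. Of all tested probes, 18.8% were higher and 21.7% lower.

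ST6GAL1 adds sialic acid to the galactose of N-glycans in the linkage read by several lectins. Its detected probe had 9.62 and 9.72 on the GFP-positive arrays, against 5.93 and 6.61 on the GFP-negative arrays, where 1 array detected it. Both GFP-positive arrays lay far above both GFP-negative arrays, and the log2 difference was 3.40 ± 0.25 (adjusted p = 3.88e-05). The other 2 ST6GAL1 probes were detected on no array, so the difference rests on 1 probe. Its paralogue ST6GAL2 was not tested.

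Among sialyltransferases that act on N-acetylgalactosamine, ST6GALNAC4 and ST6GALNAC2 moved in opposite directions. ST6GALNAC4 adds a second sialic acid to already sialylated O-glycans. Its brighter probe had 8.69 and 8.64 in GFP-positive cells, against 6.95 and 7.42 in GFP-negative cells (1.48 ± 0.21, adjusted p = 0.00123), and its dimmer probe had 8.85 and 8.70 in GFP-positive cells, against 6.21 and 6.20 in GFP-negative cells (2.57 ± 0.17). ST6GALNAC2, which sialylates the innermost sugar of O-glycans, had 6.88 and 7.02 in GFP-positive cells and 8.40 and 8.27 in GFP-negative cells. All 4 arrays detected ST6GALNAC2, and it was lower in GFP-positive cells (-1.38 ± 0.18, adjusted p = 0.000743). ST6GALNAC6, a ganglioside enzyme, had 8.81 and 8.61 in GFP-positive cells, against 8.79 and 8.11 in GFP-negative cells, and did not pass (0.26 ± 0.25). Of the 6 ST8SIA genes, which add sialic acid to sialic acid, ST8SIA3 alone was tested, and its values of 6.20 and 6.49 in GFP-positive cells and 6.36 and 6.39 in GFP-negative cells overlapped (-0.03 ± 0.18; the sign turned with cyclic loess and with 75th percentile scaling).

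**Figure D2:**
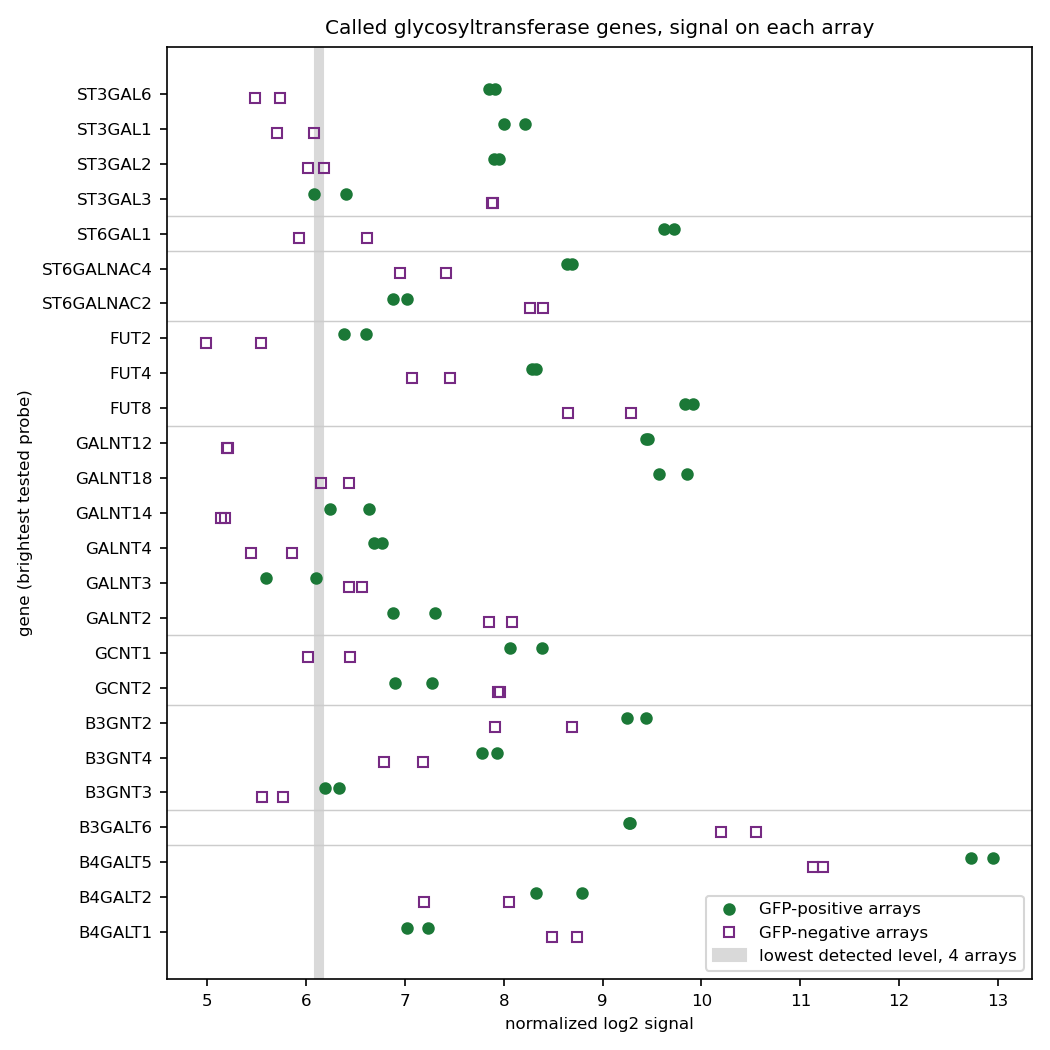
Normalized log2 signal (horizontal axis) of the 25 called glycosyltransferase genes on each array, for the brightest tested probe of each gene: filled circles are the 2 GFP-positive arrays, open squares the 2 GFP-negative arrays, and the grey band spans the lowest detected level on the 4 arrays (6.09 to 6.17). For GALNT12 and ST3GAL6 both GFP-negative squares lie left of the band, and for B4GALT5 and B3GALT6 all 4 points lie far to its right.

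Fucosyltransferases with a tested probe, 3 of the 10 FUT symbols, each had a probe called higher in GFP-positive cells. By probe, 3 of 4 tested were called higher, where 18.8% of all tested probes were. FUT2 was detected on neither GFP-negative array, so it entered the test through the group where it is bright. FUT4 makes the Lewis x antigen. Its brighter probe had 8.32 and 8.29 in GFP-positive cells, against 7.07 and 7.46 in GFP-negative cells (1.04 ± 0.20, adjusted p = 0.00502). A dimmer FUT4 probe, detected only on the GFP-negative arrays, had a difference of the opposite sign that did not pass (-0.43 ± 0.21, adjusted p = 0.135). FUT8, the enzyme of core fucose on N-glycans, had 9.83 and 9.92 in GFP-positive cells, against 8.64 and 9.29 in GFP-negative cells. Its log2 difference of 0.91 ± 0.24 had an adjusted p of 0.0206. That call was lost when GFP-positive replicate 1 (0.0611), GFP-positive replicate 2 (0.0889) or GFP-negative replicate 1 (0.065, with a log2 difference of 0.58) was left out, and with no detection filter (0.0788). FUT2, which makes the H antigen of secretions, was near background. It had 6.39 and 6.61 in GFP-positive cells, against 5.54 and 4.99 in GFP-negative cells, at least 1.3-fold higher. The fitted log2 difference against that undetected level was 1.23 ± 0.23 (limma, adjusted p = 0.0046).

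Among the polypeptide N-acetylgalactosaminyltransferases, GALNT12 was at least 10.0-fold higher in GFP-positive cells, and GALNT18 had a fitted fold of 10.7. GALNT12 had 9.46 and 9.44 on the GFP-positive arrays, against 5.21 and 5.20 on the GFP-negative arrays, where it was not detected. The bound was at least 10.0-fold. The fitted log2 difference of 4.24 ± 0.17 (limma, adjusted p = 2.03e-06) is against an undetected level. GALNT18 had 9.85 and 9.57 in GFP-positive cells, against 6.43 and 6.15 in GFP-negative cells. All 4 arrays detected GALNT18, and its adjusted p was 1.19e-05. Its GFP-negative values lay near the lowest detected level. GALNT4 (6.69 and 6.77 in GFP-positive cells, against 5.45 and 5.86 in GFP-negative cells) and GALNT14 (6.63 and 6.24 in GFP-positive cells, against 5.18 and 5.14 in GFP-negative cells) were at least 1.53- and 1.25-fold higher in GFP-positive cells, and both lay near background.

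GALNT2, a broadly acting initiator of O-glycans, was lower in GFP-positive cells, with 7.30 and 6.88 in these cells, against 8.09 and 7.85 in GFP-negative cells (-0.88 ± 0.21, adjusted p = 0.0143). Leaving out GFP-positive replicate 2 gave an adjusted p of 0.114, and leaving out GFP-negative replicate 1 gave 0.0649. GALNT3, known for glycosylating the phosphate hormone FGF23, was lower in GFP-positive cells by a factor of at least 1.28 (6.10 and 5.60 in GFP-positive cells, against 6.56 and 6.44 in GFP-negative cells, adjusted p = 0.0467). The GALNT3 call was lost on leaving out GFP-positive replicate 2 (0.315, with a log2 difference of -0.40), GFP-negative replicate 1 (0.143) or GFP-negative replicate 2 (0.0831). It was also lost with cyclic loess (0.058), with no background correction (0.119) and with no detection filter (0.124). GALNT11 (10.74 and 10.94 in GFP-positive cells, against 11.21 and 11.44 in GFP-negative cells) and GALNT1 (8.14 and 7.90 in GFP-positive cells, against 7.48 and 7.52 in GFP-negative cells) did not pass, with differences of -0.48 ± 0.19 (adjusted p = 0.0745) and 0.52 ± 0.18 (adjusted p = 0.0538). With the isolation day as a block, their adjusted p was 0.0458 for GALNT11 and 0.0413 for GALNT1. GALNT1 also passed with cyclic loess (0.0253), and GALNT11 with no background correction (0.0255), 75th percentile scaling (0.0262) and a variance trend (0.0323). In all, 4 of 8 tested GALNT genes were higher in GFP-positive cells, 2 were lower and 2 did not pass. Of all tested probes, 18.8% were higher and 21.7% lower. GALNT12, GALNT14 and GALNT4 were detected on neither GFP-negative array and GALNT3 on neither GFP-positive array. These genes entered the test through the group where they are brighter. Without background correction the log2 difference was 2.54 for GALNT12, 2.16 for GALNT18 and 2.14 for ST6GAL1, all still called.

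The upstream sequences of 5 called genes are shown because these genes are called members with large differences. They are the 3 higher and 2 lower genes with the largest fitted difference among called genes that have exactly 1 promoter in the RefSeq table (GRCh38.p14). Of the 25 called genes, 19 had a promoter there and 11 had exactly 1. Each run is the 250 bases before the gene's start, 5′ to 3′ on the gene's strand, and capitals mark GC boxes, the letters GGGCGG or their reverse complement CCGCCC, with overlapping boxes merged. The windows are chr9:98807420-98807669 (plus strand) for GALNT12, chr3:186930276-186930525 (plus) for ST6GAL1, chr20:49713879-49714128 (minus) for B4GALT5, chr1:43707286-43707535 (plus) for ST3GAL3 and chr1:1231987-1232236 (plus) for B3GALT6.
GALNT12: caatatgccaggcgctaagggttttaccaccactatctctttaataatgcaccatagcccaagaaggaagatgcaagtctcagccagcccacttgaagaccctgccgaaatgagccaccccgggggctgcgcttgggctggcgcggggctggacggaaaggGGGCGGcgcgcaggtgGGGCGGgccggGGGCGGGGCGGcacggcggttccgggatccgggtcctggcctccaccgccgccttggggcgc
ST6GAL1: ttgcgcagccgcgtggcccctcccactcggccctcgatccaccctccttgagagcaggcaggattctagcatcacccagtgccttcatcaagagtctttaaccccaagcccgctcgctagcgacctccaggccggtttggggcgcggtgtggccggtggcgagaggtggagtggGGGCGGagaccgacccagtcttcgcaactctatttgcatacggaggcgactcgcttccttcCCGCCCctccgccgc
B4GALT5: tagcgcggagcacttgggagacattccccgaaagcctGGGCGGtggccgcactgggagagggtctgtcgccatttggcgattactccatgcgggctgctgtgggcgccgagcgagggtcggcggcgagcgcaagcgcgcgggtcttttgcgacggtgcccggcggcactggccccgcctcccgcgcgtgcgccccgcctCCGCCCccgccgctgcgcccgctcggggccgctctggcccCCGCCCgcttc
ST3GAL3: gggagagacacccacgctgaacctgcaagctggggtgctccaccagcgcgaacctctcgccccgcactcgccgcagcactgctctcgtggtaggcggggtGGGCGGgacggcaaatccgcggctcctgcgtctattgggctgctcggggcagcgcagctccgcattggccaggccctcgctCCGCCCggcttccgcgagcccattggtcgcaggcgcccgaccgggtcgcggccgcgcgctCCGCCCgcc
B3GALT6: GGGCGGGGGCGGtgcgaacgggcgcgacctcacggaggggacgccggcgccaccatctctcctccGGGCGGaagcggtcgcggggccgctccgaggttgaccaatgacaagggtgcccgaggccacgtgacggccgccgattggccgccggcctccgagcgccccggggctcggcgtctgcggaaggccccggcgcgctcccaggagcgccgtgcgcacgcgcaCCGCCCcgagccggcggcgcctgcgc
GALNT12 and B3GALT6 each held 4 GC boxes, B4GALT5 and ST3GAL3 held 3, and ST6GAL1 held 2, where 42.6% of 35116 promoters of this length hold at least 1. The number of CG dinucleotides was 21 for GALNT12, 22 for ST6GAL1 and 37 for B4GALT5, all higher in GFP-positive cells, and 33 for ST3GAL3 and 44 for B3GALT6, both lower there, with a median of 11 over all promoters. The letters TATAAA, searched on both strands, were in none of the 5 windows and in 10.7% of all promoters. TGANTCA, the AP-1 motif, which reads the same on both strands, was likewise in none of the 5 and in 6.57% of all promoters. Higher and lower genes alike thus had GC boxes and more CG dinucleotides than the median promoter. The share of promoters with fewer was 69.8% for GALNT12, 72.0% for ST6GAL1, 96.0% for B4GALT5, 91.9% for ST3GAL3 and 99.2% for B3GALT6. No match of 1 of these 3 motifs can contain a match of another. The probes do not show which start site was used.

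Of the 2 tested GCNT branching enzymes, 1 was higher and 1 lower in GFP-positive cells. Over all tested probes, 18.8% were higher and 21.7% lower. GCNT1, which forms the core 2 branch of O-glycans, had 8.39 and 8.06 in GFP-positive cells, against 6.44 and 6.02 in GFP-negative cells, where 1 array detected it. Its log2 difference was 1.99 ± 0.22 (adjusted p = 0.00034). GCNT2, which branches lactosamine chains into the I antigen, was lower in GFP-positive cells at 7.27 and 6.90, against 7.96 and 7.94 in GFP-negative cells (-0.87 ± 0.20, adjusted p = 0.0109, and 0.0974 without GFP-positive replicate 2).

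None of the 5 tested MGAT genes was called by limma, in 6 probes that all 4 arrays detected, and 0 of the 6 had an unadjusted p under 0.05. Over all probes that all 4 arrays detected, 34.6% were called. MGAT1, which starts hybrid and complex N-glycans, had 10.38 and 10.18 in GFP-positive cells, against 10.63 and 10.27 in GFP-negative cells (-0.17 ± 0.20, adjusted p = 0.537). MGAT5, which makes the branch linked to tumour cell invasion, had 11.65 and 11.49 in GFP-positive cells, against 11.94 and 11.96 in GFP-negative cells for its brighter probe. The MGAT5 difference was -0.38 ± 0.17 (adjusted p = 0.122), and -0.34 ± 0.18 for its other tested probe. The brighter MGAT5 probe passed with no background correction (0.0455), 75th percentile scaling (0.0484) and a variance trend (0.0461). MGAT2, which starts the second arm of N-glycans, had 10.20 and 10.38 in GFP-positive cells, against 10.33 and 10.80 in GFP-negative cells (-0.27 ± 0.22). The antenna enzymes MGAT4A (0.31 ± 0.21) and MGAT4B (-0.14 ± 0.22) did not pass. A p that misses the threshold does not show that these levels were equal.

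Chain-extending B3GNT enzymes with a tested probe, 3 of 8 symbols, were each called higher in GFP-positive cells, where 18.8% of all tested probes were. B3GNT3 was detected on neither GFP-negative array, so it entered the test through the group where it is bright. Each call was lost in some fit with an array left out, and such fits also have less power. B3GNT2, the main enzyme of poly-lactosamine, had 9.25 and 9.44 in GFP-positive cells, against 7.92 and 8.69 in GFP-negative cells (1.04 ± 0.27, adjusted p = 0.0186). Leaving out GFP-positive replicate 2 gave 0.083, leaving out GFP-negative replicate 1 gave 0.0554 with a log2 difference of 0.65, and dropping the detection filter gave 0.0821. B3GNT4 had 7.93 and 7.78 in GFP-positive cells, against 7.18 and 6.79 in GFP-negative cells (0.87 ± 0.20, adjusted p = 0.0123, and 0.0749 without GFP-positive replicate 1). B3GNT3, which extends core O-glycans, was near background. It had 6.33 and 6.19 in GFP-positive cells, against 5.55 and 5.77 in GFP-negative cells, at least 1.1-fold higher. The fitted log2 difference against that undetected level was 0.60 ± 0.18 (limma, adjusted p = 0.0343). The B3GNT3 call was lost on leaving out GFP-positive replicate 1 (0.185), GFP-positive replicate 2 (0.111) or GFP-negative replicate 1 (0.106), and with no background correction (0.109) or no detection filter (0.0686).

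Galactosyltransferases went both ways at levels above background. B4GALT5, which makes lactosylceramide, the entry to most glycosphingolipids, had 12.73 and 12.95 in GFP-positive cells, against 11.23 and 11.13 in GFP-negative cells. The gap between the groups was larger than the gap between arrays of either group, and the log2 difference was 1.66 ± 0.18 (adjusted p = 0.000318). B4GALT1, a major lactosamine synthase that also forms lactose synthase with lactalbumin in the breast, had 7.24 and 7.02 in GFP-positive cells, against 8.74 and 8.49 in GFP-negative cells (-1.49 ± 0.19, adjusted p = 0.000758). B3GALT6, an enzyme of the sugar linker that attaches glycosaminoglycans to proteins, was lower in GFP-positive cells at 9.28 and 9.27, against 10.56 and 10.19 in GFP-negative cells (-1.10 ± 0.19, adjusted p = 0.00352). B4GALT7, which acts one step earlier in that linker, had 9.83 and 9.88 in GFP-positive cells, against 9.50 and 8.97 in GFP-negative cells, and did not pass (0.62 ± 0.22, adjusted p = 0.0578). It passed with the isolation day as a block (0.0345), cyclic loess (0.0341), a variance trend (0.0386), no background correction (0.0258) and GFP-negative replicate 1 left out (0.0191).

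B4GALT2, another lactosamine synthase, was higher in GFP-positive cells for its brighter probe, at 8.79 and 8.33, against 8.06 and 7.19 in GFP-negative cells (0.93 ± 0.31, adjusted p = 0.0456). Its dimmer probe did not pass (-0.11 ± 0.29), and the call of the brighter one was lost on leaving out GFP-positive replicate 1 (0.194) or GFP-negative replicate 2 (0.171, with a log2 difference of 0.50), and with no detection filter (0.165). B4GALT3, also a lactosamine synthase, had 10.40 and 10.44 in GFP-positive cells, against 11.00 and 10.81 in GFP-negative cells (-0.48 ± 0.18, adjusted p = 0.0634), and passed with no background correction (0.0212), 75th percentile scaling (0.0263) and a variance trend (0.0361). B4GALT4 did not pass (0.11 ± 0.19, adjusted p = 0.683; its sign turned with GFP-positive replicate 1 left out). The N-acetylgalactosaminyltransferases B4GALNT1, which makes the gangliosides GM2 and GD2, and B4GALNT4, which makes the LacdiNAc unit, did not pass either. B4GALNT1 had 7.56 and 6.99 in GFP-positive cells, against 8.11 and 7.42 in GFP-negative cells (-0.49 ± 0.29, adjusted p = 0.212), and B4GALNT4 had 8.10 and 7.73 in GFP-positive cells, against 8.56 and 8.29 in GFP-negative cells (-0.51 ± 0.21, adjusted p = 0.0862). In both genes the second array was lower in each group, and with the isolation day as a block their adjusted p was 0.045 and 0.0379.

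**Figure D3:**
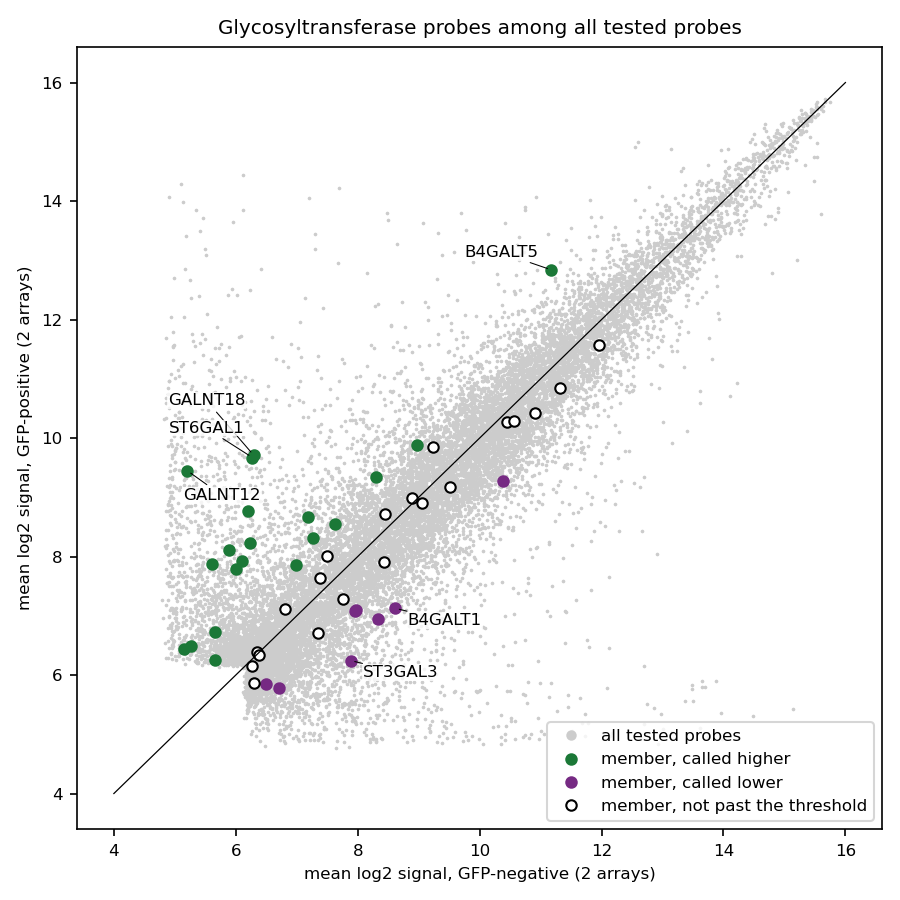
Mean log2 signal of each tested probe in GFP-positive cells (vertical axis) against GFP-negative cells (horizontal axis), 2 arrays each, with the 48 tested member probes over all 18098 tested probes. Called members lie on both sides of the line of equal signal, 20 above and 8 below, within the spread of other probes.

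The members without a tested probe numbered 46 symbols. They were the sialyltransferases ST6GAL2, ST6GALNAC1, ST6GALNAC3, ST6GALNAC5, ST8SIA1, ST8SIA2, ST8SIA4, ST8SIA5 and ST8SIA6, and the fucosyltransferases FUT1, FUT3, FUT5, FUT6, FUT7 and FUT9 with FUT8-AS1. In the GALNT family they were GALNT5, GALNT6, GALNT7, GALNT8, GALNT9, GALNT10, GALNT13, GALNT15, GALNT16, GALNT17 and GALNT9-AS1, and among branching enzymes GCNT3, GCNT4, GCNT7, MGAT3, MGAT4C and MGAT5B. The rest were B3GALT1, B3GALT2, B3GALT4, B3GALT5, B3GALT5-AS1, B3GNT5, B3GNT6, B3GNT7, B3GNT8, B3GNT9, B4GALNT2, B4GALNT3 and B4GALT6. Of the 79 untested member probes, 69 were detected on no array, 9 on 1 array and 1 on 2 arrays, 1 in each group, and 17 belong to genes that have another, tested probe. The Lewis enzymes FUT3 and FUT6, the GD3 synthase ST8SIA1 and ST6GALNAC1, which makes the sialyl-Tn antigen, had no probe detected on both arrays of either group.

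Other genes of glycan synthesis were read from 8 lists with 46 tested genes. Of these, 9 were higher in GFP-positive cells, 11 were lower, 1 had probes called in both directions and 25 did not pass, so 21 of 46 were called, where 45.8% of all tested genes were. The count was 12 without GFP-positive replicate 1. In sialic acid supply, 2 of 5 genes were higher and 2 lower. GNE, the rate-limiting enzyme of sialic acid synthesis, had 9.64 and 9.69 in GFP-positive cells, against 7.06 and 7.36 in GFP-negative cells (2.46 ± 0.19, adjusted p = 4.79e-05). NANS, the sialic acid synthase, was lower in GFP-positive cells (-0.76 ± 0.18, adjusted p = 0.0127, and 0.077 and 0.0691 without GFP-positive replicates 1 and 2). NANP, the phosphatase of the same route, had 1 probe lower in GFP-positive cells by a factor of at least 3.29 and another that did not pass (-0.30 ± 0.24). CMAS, which activates sialic acid and was named after its values were seen, was higher in both probes (0.63 ± 0.17 and 0.74 ± 0.18), and both calls were lost on leaving out GFP-positive replicate 1 (adjusted p = 0.115 and 0.0848) or GFP-positive replicate 2 (0.132 and 0.0714). The list median was 0.05.

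None of the 4 tested genes of fucose supply was called by limma, where 45.8% of all tested genes had a called probe. Of their 4 probes, 1 had an unadjusted p under 0.05. In 5 of the 12 alternatives 1 of them was called: the replicate block, the variance trend, no background correction, the deposited table and GFP-negative replicate 2 left out. No background correction and the deposited table gave the same values, so they are not separate results. In hexosamine and galactose supply, 1 of 10 genes was higher in GFP-positive cells and 2 were lower. GFPT1, which controls entry to the hexosamine pathway, had 10.21 and 10.27 in GFP-positive cells, against 10.95 and 11.27 in GFP-negative cells (-0.87 ± 0.19, adjusted p = 0.00945, and 0.0557 without GFP-positive replicate 1), while another of its probes did not pass (-0.58 ± 0.30). The calls of GALK2 (0.67 ± 0.20, higher) and UGP2 (-0.64 ± 0.19, lower) each rest on a dimmer probe and were lost on leaving out GFP-positive replicate 1 (adjusted p = 0.0848 and 0.0827) or GFP-positive replicate 2 (0.178 and 0.201). The GALK2 call was also lost on leaving out GFP-negative replicate 1 (0.118), and the UGP2 call on leaving out GFP-negative replicate 2 (0.106). Of 6 genes for first steps of O-glycans and O-fucose, 1 was called. B3GALNT1, despite its place in that list, is the globoside synthase of glycolipids. Its brighter tested probe had 9.44 and 9.29 in GFP-positive cells, against 5.26 and 5.31 in GFP-negative cells, at least 9.45-fold higher (adjusted p = 2.72e-06). The dimmer tested probe of B3GALNT1 was at least 2.55-fold higher, and its other probes were not tested. C1GALT1, the core O-glycan synthase that acts after the GALNT enzymes, and its chaperone C1GALT1C1 were named outside the rule and did not pass, with differences of -0.09 ± 0.19 (the sign turned with cyclic loess) and -0.31 ± 0.21.

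Glycolipid entry enzymes, with 4 tested probes for 4 genes, were called higher in GFP-positive cells for 3 of them, where 18.8% of all tested probes were. UGT8, A4GALT and GBGT1 were detected on neither GFP-negative array, so they entered the test through the group where they are bright. The list median of 1.30 rests in part on differences fitted against undetected levels. UGT8, which makes galactosylceramide, had 9.48 and 9.56 in GFP-positive cells, against 5.55 and 5.30 in GFP-negative cells, at least 10.6-fold higher (adjusted p = 3.27e-06). UGCG, which makes glucosylceramide, the substrate of B4GALT5, had 8.58 and 8.91 in GFP-positive cells, against 7.43 and 7.71 in GFP-negative cells (1.18 ± 0.20, adjusted p = 0.00327), and A4GALT, the globotriaosylceramide synthase, was at least 1.18-fold higher.

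N-glycan trimming had 1 gene higher and 4 lower of 7, with a list median of -0.57. Over all tested genes, 45.8% had a called probe, the share to compare for this list and for the glycosidases. MAN1A1, a Golgi mannosidase, was at least 3.03-fold higher in GFP-positive cells (adjusted p = 0.00156), and MAN2A2 and MAN2A1, which trim after MGAT1, were lower (-1.14 ± 0.22 and -0.91 ± 0.29). For MAN2A1 the adjusted p was 0.188 with GFP-positive replicate 1 left out, 0.157 with GFP-negative replicate 2 left out (log2 difference -0.52), 0.0696 with cyclic loess and 0.147 with no detection filter. Of 7 glycosidases, 1 was higher and 2 were lower in GFP-positive cells. The lysosomal sialidase NEU1 had 9.22 and 9.36 in GFP-positive cells, against 10.56 and 10.55 in GFP-negative cells (-1.26 ± 0.17, adjusted p = 0.00104). The fucosidase FUCA1 was higher (1.11 ± 0.20), and the galactosidase GLB1 was lower (-0.53 ± 0.18 for its brighter probe, adjusted p = 0.0491), a call lost when any 1 array was left out (0.0838 to 0.269). Among 3 tested mucins, MUC16 was lower in GFP-positive cells by a factor of at least 3.09 (adjusted p = 0.000105). MUC4 had a probe that was lower (-0.79 ± 0.20, adjusted p = 0.0187, but 0.135 with GFP-positive replicate 2 left out and 0.0764 with GFP-negative replicate 1 left out) and another at least 1.26-fold higher.

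**Figure D4:**
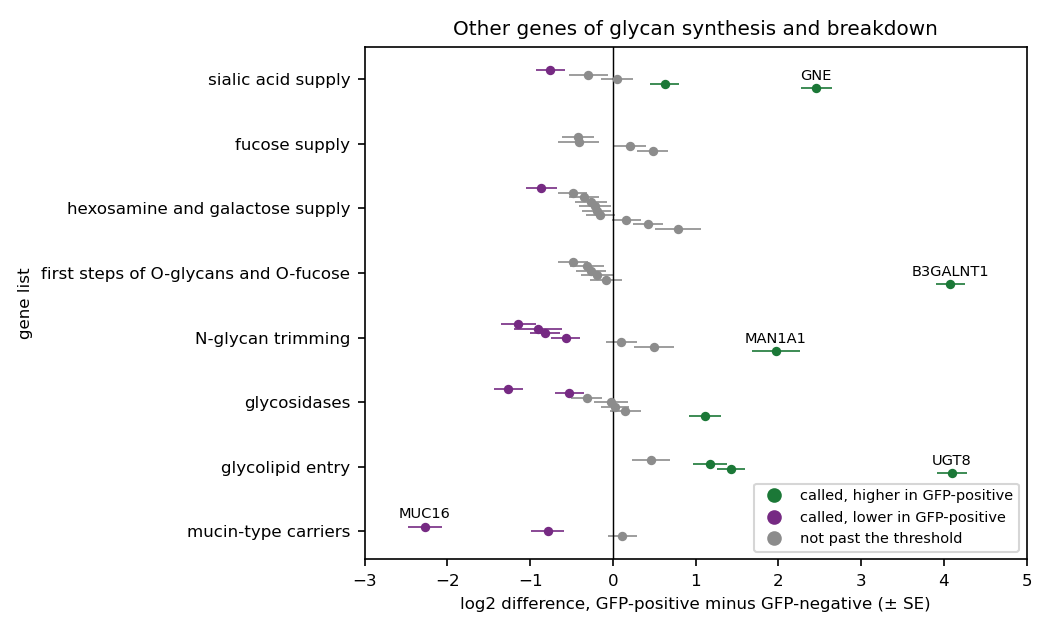
Log2 difference between GFP-positive and GFP-negative cells (horizontal axis, points with SE bars, 2 arrays per group) for the brightest tested probe of each gene in 8 lists of glycan synthesis and breakdown. GNE lies at 2.46, and the points of UGT8, B3GALNT1, MAN1A1 and MUC16 are fitted against a level detected on neither array of the dimmer group, so that only their bounds (10.6-, 9.45-, 3.03- and 3.09-fold) are measured. The points of A4GALT and GBGT1 are fitted against such a level too, with bounds of 1.18- and 1.08-fold.

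**Figure D5:**
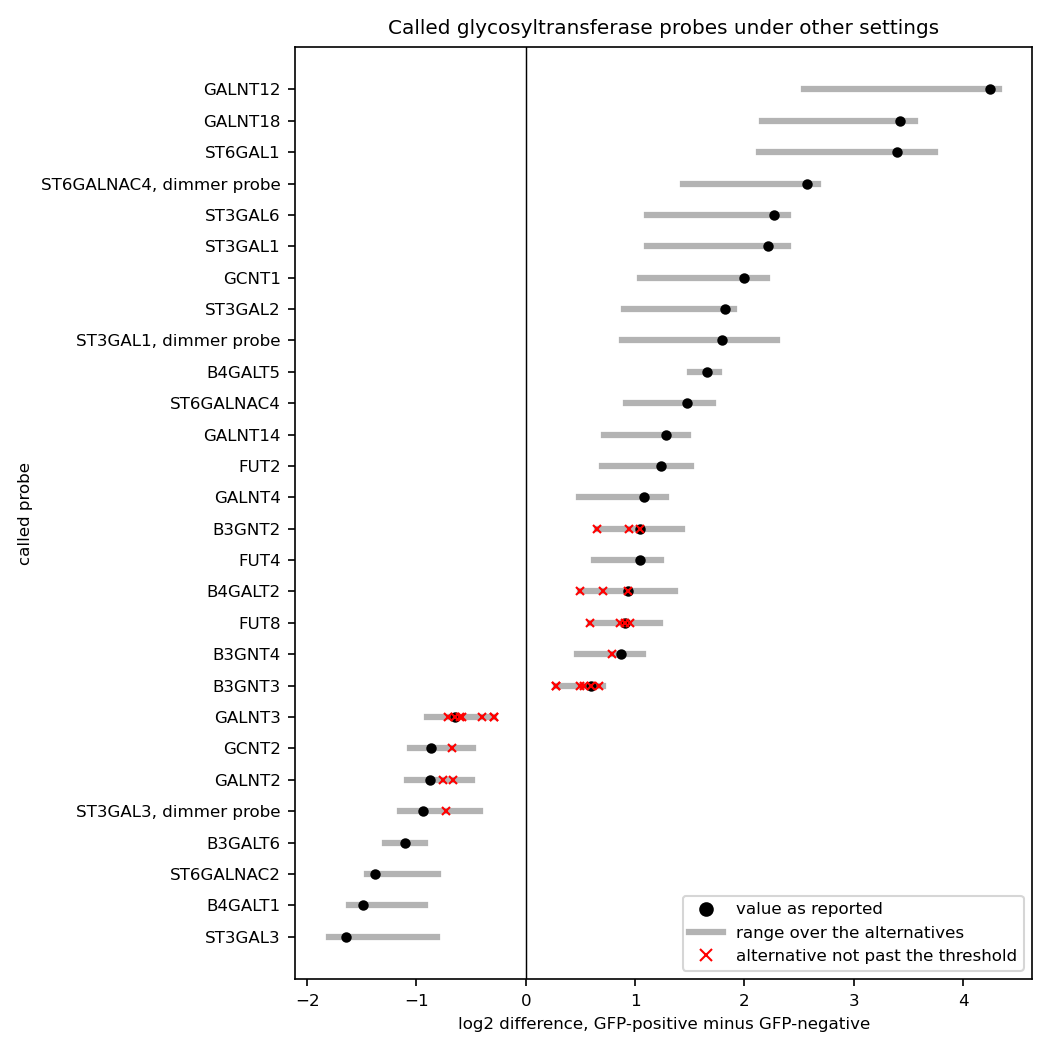
Log2 difference (horizontal axis) of the 28 called member probes: black points are the reported values, grey bars span the 12 alternative settings, and red crosses mark settings in which the probe did not pass. Signs could turn only under another normalization, no background correction or the deposited table. No bar crosses 0, and crosses fall on 9 probes, among them B3GNT3, GALNT3 and FUT8.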

How the data were processed

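Bead signals of 4 Illumina arrays were used. The deposited intensity values are linear and not normalized per the file headers, and the submitters' processing notes name GenomeStudio 2009.2. The sources used here do not give whether background was subtracted. The deposited detection p-value of each probe and array ranks it among the negative controls. A deposited log2 table equalled the log2 signals after quantile normalization, a step no label states, and was used as an alternative. It gave the same values as no background correction, so these alternatives are not separate.

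In R 4.3.3 with limma 3.58.1, neqc corrected background from the detection p-values (offset 16), followed by quantile normalization and log2. Probes that both arrays of 1 or both groups detected (p under 0.05) entered lmFit and eBayes, with 2 residual degrees of freedom and a prior of 5.31. P-values are 2-sided and adjusted by Benjamini-Hochberg over tested probes. An exact permutation test of 2 against 2 cannot go below 0.333. The fit was tested on simulated data. Separate cultures are not stated in the labels. The p-values then reflect just the spread of these samples, possibly technical. A gene is represented by its tested probe with the highest mean signal. Bounds set a dim probe at the higher of its own value and the array's lowest detected value, and the number of arrays limits precision.

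Per the series text each pair had its own isolation day, and the replicate number was taken to mark it. Over probes, the deviations of arrays that share a number correlated at 0.219. The reported fit has no block, and the blocked fit is an alternative.

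Probes were named from the platform annotation, where 30111 have 1 symbol and 17210 are unnamed here, with symbols updated through gene identifiers. Up to 4 called genes per enzyme group with the largest difference, up to 2 that did not pass, 6 fixed genes and up to 3 called genes per list were named. Other tested members were named by group. Members, lists and naming rule were chosen with earlier results of these data known. Alternatives were normalization, background correction, the detection filter, the deposited table, the variance trend, the block and leaving out each array.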

Additional observations from a re-analysis of the deposited data

How the results depend on the processing

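Over the 12 alternatives, no called member probe changed sign, and 19 of the 28 called ones passed wherever they were tested. The called probes had no overlap between the groups, so leaving out an array could not turn their sign. The filters, the block and the variance trend leave the difference itself unchanged. Their sign could thus turn only under another normalization, or under no background correction and the deposited table, which gave the same values. With probes detected on all 4 arrays only, 9 member probes were higher and 5 lower, and fewer members could be tested (32). Leaving out 1 array gave 16 to 19 higher and 4 to 9 lower member probes, 4532 to 6937 called probes over the array and 12 to 21 called list genes. These fits have fewer arrays, and a lone array is assumed to vary like the other group. The replicate block gave 22 higher and 12 lower member probes and 8471 called probes in all. It changed the call of the 6 members named with their blocked values and of no other member. The values that changed sign had not passed. With cyclic loess C1GALT1 had 0.041 and ST8SIA3 0.026, and with 75th percentile scaling ST8SIA3 had 0.011. Leaving out 1 array gave -0.54 to 0.33 for the dimmer B4GALT2 probe, -0.034 to 0.25 for B4GALT4 and -0.12 to 0.21 for its dimmer probe, -0.24 to 0.063 for C1GALT1, -0.35 to 0.0113 for MGAT1, -0.35 to 0.0657 for MGAT4B, -0.080 to 0.60 for ST6GALNAC6 and -0.17 to 0.11 for ST8SIA3, and the cause was not tested.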

Other observations

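Glycosaminoglycan enzymes and Fringe glycosyltransferases, chosen by symbol after the data were examined, also differed in both directions. Of 27 tested genes, 10 were higher in GFP-positive cells, 9 were lower and 8 did not pass, where 45.8% of all tested genes had a called probe. The heparan sulfate sulfotransferases HS6ST2 and HS3ST1 were at least 18.8- and 18.1-fold higher in GFP-positive cells: HS6ST2 had 10.24 and 10.47 in GFP-positive cells, against 5.21 and 5.01 in GFP-negative cells, and HS3ST1 had 10.02 and 10.58 in GFP-positive cells, against 5.64 and 5.39 in GFP-negative cells. DSE, the epimerase that turns chondroitin into dermatan sulfate, had 10.68 and 10.72 in GFP-positive cells, against 5.20 and 6.29 in GFP-negative cells (limma, 4.95 ± 0.33, adjusted p = 2.52e-05). LFNG, which modifies O-fucose on Notch receptors, had 9.08 and 9.10 in GFP-positive cells, against 6.50 and 5.93 in GFP-negative cells. In GFP-negative cells, 1 array detected the DSE probe and 1 the LFNG probe. The differences of HS6ST2, DSE and LFNG each rest on 1 probe. Other HS6ST2 and DSE probes were detected on no array. Other LFNG probes were not tested, with GFP-positive means of 6.25 and 5.62, against 5.95 and 5.45 in GFP-negative cells.

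The heparan sulfate polymerases EXT1 and EXT2 were lower in GFP-positive cells (-1.07 ± 0.17 and -0.91 ± 0.17), as were the chondroitin sulfotransferases CHST12 and CHST3 (-1.60 ± 0.25 and -1.32 ± 0.24), while CHST15 was higher (2.30 ± 0.21).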
